A study of Homo sapiens with 9 samples.

Results

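Vesicle trafficking genes were read on 9 two-colour arrays of HaCaT keratinocytes exposed or not to an extremely low frequency electromagnetic field (ELF-EMF). The genes were taken by symbol and comprised Rab, Arf, Arl and Sar1 GTPases, SNAREs, COPI and COPII coat subunits, and golgins, cornichons and TMED (p24) cargo receptors. The symbol pattern matched 130 genes (152 probes) on the array. Of these, 65 genes (66 probes, since COPA had 2) had a value in at least 2 of the 3 biological samples and are the members described here. They are part of 4103 genes (4456 probes) that carried a symbol and met the same condition.

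HaCaT is an immortalized, non-tumorigenic human keratinocyte line, and all the cells were of this 1 line. Cells were synchronized by serum starvation, released by adding serum back, and either exposed for 1 h to a field of 50 Hz and 1 mT inside a solenoid or kept, with the label sham, in an identical incubator without the field. The 3 biological samples (A, B and C) each had 2 arrays with the exposed RNA in the red dye (Cy5) and 1 dye swap with it in the green dye (Cy3). Every value below is a log2 ratio of exposed over non-exposed cells, so 0 means equal levels, with the dye swaps turned to this direction, and cells of both conditions came from the same flask.

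Rab GTPases mark membranes and recruit motors and tethers, while Arf and Sar1 GTPases start the assembly of coats. COPII buds vesicles from the endoplasmic reticulum (ER), and COPI carries proteins back to the ER and between Golgi cisternae. TMED proteins help select cargo for both, and cornichon proteins help cargo leave the ER. SNAREs on vesicle and target pair up and fuse the membranes. In keratinocytes this route carries integrins, desmosomal proteins and growth factors to the cell surface.

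The arrays differed in how many probes they reported. Between 3.76% and 23.41% of the 30968 probes had a value on an array, and between 12 and 64 of the 66 member probes did. Ratios carry no signal level or background, so dim and bright probes could not be separated, and the number of arrays limits the precision. The second array of sample C stood apart. As deposited, before any column was turned, it correlated across probes at -0.19 to 0.10 with the other arrays that had exposed RNA in Cy5 and at 0.36 to 0.42 with the dye swaps, although its label gives exposed RNA in Cy5. The other Cy5 arrays correlated with each other at 0.06 to 0.48, the dye swaps with each other at 0.38 to 0.45, and the 2 kinds with each other at -0.15 to 0.13. If the columns are Cy5 over Cy3, a difference between the RNAs enters them with opposite signs in the 2 orientations, and a dye effect with the same sign. If the dye swaps were turned before deposit, the reverse holds. The direction is not stated, and the cause of these correlations was not tested. Of the keratinocyte markers on the array, 9 of 10 had a value in at least 2 biological samples, against 0 of 4 fibroblast, 0 of 4 melanocyte, 1 of 3 leukocyte and 1 of 2 endothelial markers. A value on at least 1 array was present for 10 keratinocyte, 1 fibroblast and 1 melanocyte marker.

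Coverage of the members differed by role. Counts of genes on the array are of those that the symbol pattern matched, and genes of these roles under other symbols were not counted. All 7 COPI genes so matched were members. So were 10 of 14 Arf, Arl and Sar1 genes, 12 of 19 golgin, cornichon and TMED genes, 12 of 27 SNAREs, 4 of 9 COPII genes and 20 of 54 Rab genes. A value in all 3 samples was available for 42 members, and only 3 of these were SNAREs. A dye swap had read 52 of the 66 member probes, and for 49 of them the dye swap of sample B was among those arrays.

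**Figure D1:**
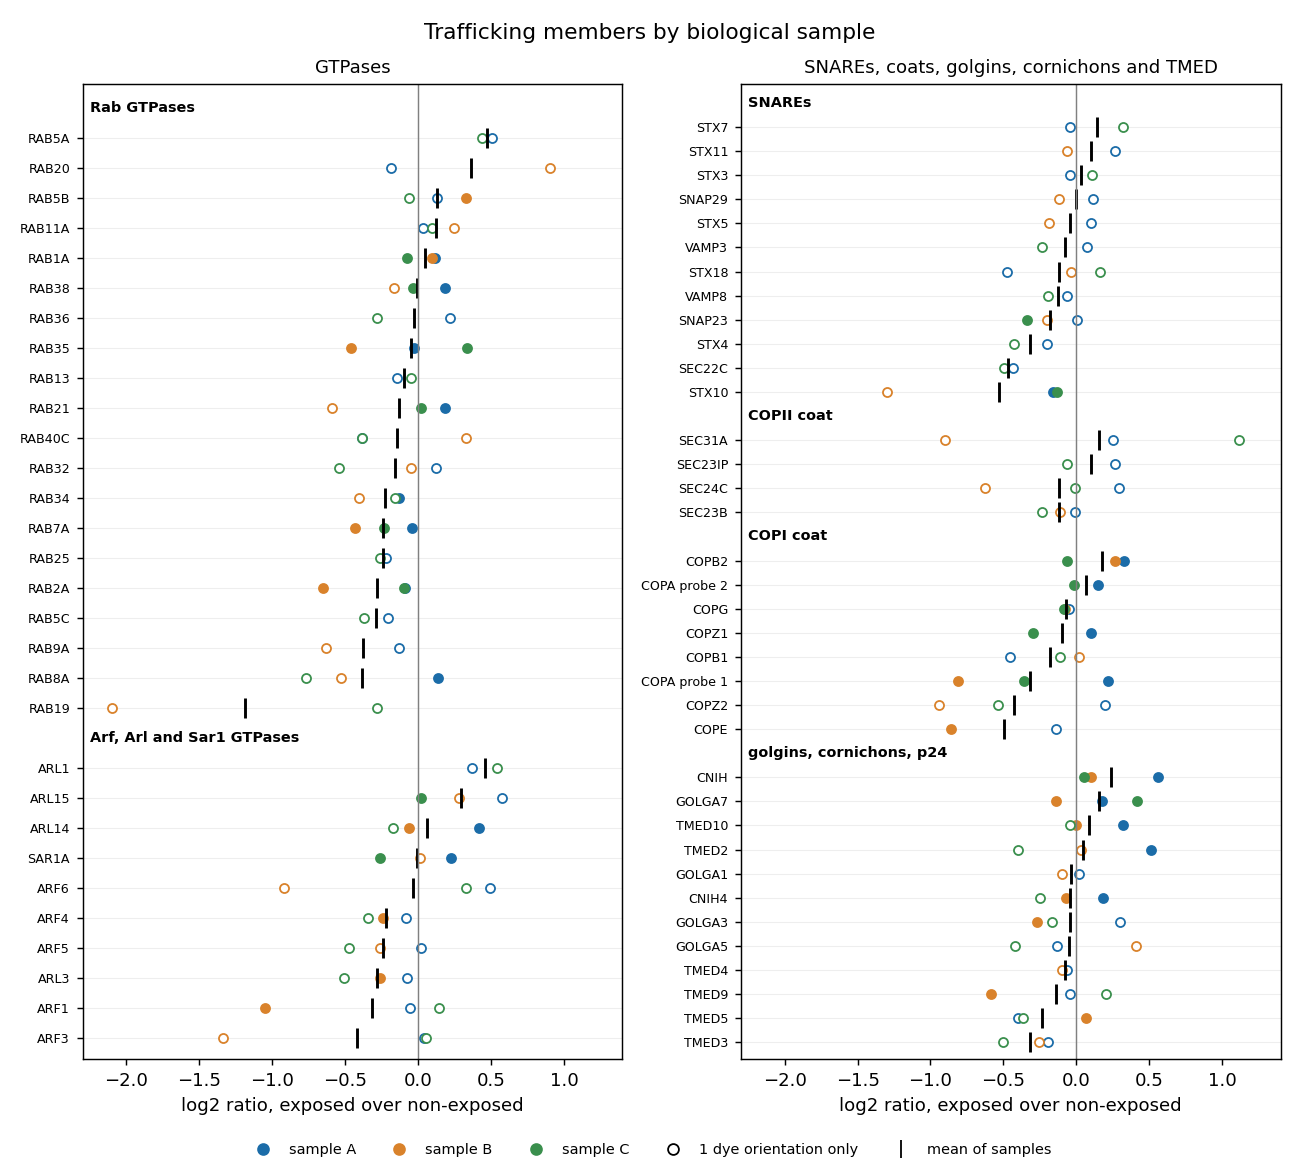
Log2 ratio of exposed over non-exposed HaCaT cells (x axis) for each member probe (rows, by role and ordered by mean). Circles are biological samples A, B and C, open where 1 dye orientation only had a value, and bars are the means of the samples. The low points of RAB19, ARF3, STX10 and ARF1 belong to sample B.

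The first question was which trafficking genes differed between exposed and non-exposed cells once dye effects were balanced. For this, both orientations had to be present in all 3 samples, which held for 8 members and 570 probes in all. The 8 members were the GTPases RAB1A, RAB2A, RAB7A and RAB35, the COPI subunits COPA and COPB2, the cornichon CNIH (now CNIH1) and GOLGA7. Means lay between -0.32 (COPA) and 0.24 (CNIH), with 4 members below 0 and 4 above, while 75.3% of all 570 probes were below 0. Of the 8 members, 3 lay below the median of all probes. None of the 8 passed limma's test in either direction, and 1 (COPA) had an unadjusted p under 0.05. Over all 570 probes, 22 (3.86%) were called lower and 0 (0%) higher, and 116 had an unadjusted p under 0.05. This split became 4 higher and 13 lower with each array centred on its median, and to 1 higher and 9 lower after quantile normalization. The table states no direction, and with the dye-swap columns taken as already turned the split was 33 higher and 0 lower, while the Cy5 arrays alone gave 14 higher and 5 lower. With the dye swaps turned, the median of all 570 probes was -0.12 with array medians kept and -0.019 after centring, so the position of each member relative to the median of all probes is given too.

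The first COPA probe and COPB2, the COPI probes with both orientations in all 3 samples, had means of opposite sign. COPA, the alpha subunit that binds retrieval signals on cargo, had 0.39 and 0.28 on the Cy5 arrays of sample A and 0.10 on its dye swap. In sample B its 1 Cy5 array gave -0.27 and the dye swap -1.34. In sample C the Cy5 arrays gave 0.10 and 0.71 and the dye swap -1.12. High values were thus on the Cy5 arrays and the lowest ones on the dye swaps of B and C. The sample values were 0.22, -0.81 and -0.36 in A, B and C, with a mean of -0.32 ± 0.52 (SD, n = 3; 0.19 below the median of all probes; adjusted p = 0.219). The second COPA probe had no value in sample B and gave 0.15 in A and -0.014 in C. Its mean was 0.068, on the other side of 0 from the first probe. Its Cy5 and dye-swap means were also of opposite sign (0.34 and -0.20).

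COPB2, the beta prime subunit that lies beside COPA in the outer layer of the coat, was above 0 on 6 of its 8 arrays. It had 0.23, 0.23 and 0.42 in sample A, 0.24 and 0.29 in sample B, and -0.30, -0.56 and 0.31 in sample C, with the dye swap last in each. The sample values of 0.33, 0.26 and -0.061 gave a mean of 0.18 ± 0.21 (SD, n = 3; adjusted p = 0.538), 0.30 above the median of all probes. Only the Cy5 arrays of sample C were below 0. From the Cy5 arrays alone, COPB2 had a mean of 0.014 and the first COPA probe 0.16, both above 0.

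The 4 dye-balanced Rab GTPases lay on both sides of 0. RAB2A, which works between the ER and the Golgi, had sample values of -0.090, -0.65 and -0.095 in A, B and C and a mean of -0.28 ± 0.32 (SD, n = 3; adjusted p = 0.289). It was below 0 on 7 of 9 arrays, and the lowest was the dye swap of sample B at -0.91. RAB7A, which controls the step from late endosomes to lysosomes, was below 0 on 8 of 9 arrays, between -0.73 and 0.029. Its sample values were -0.044, -0.44 and -0.24, with a mean of -0.24 ± 0.20 (SD, n = 3; adjusted p = 0.387). Relative to the median of all probes, RAB2A lay 0.16 lower and RAB7A 0.12 lower, which is less than the SD of either gene.

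RAB1A, needed for transport from the ER to the Golgi, had values close to 0 in all samples (0.12, 0.098 and -0.073) and a mean of 0.047 ± 0.11 (SD, n = 3; adjusted p = 0.898). RAB35, which acts in recycling from endosomes to the plasma membrane, spread more widely. Its sample values were -0.027, -0.46 and 0.33, and its mean was -0.051 ± 0.40 (SD, n = 3; adjusted p = 0.89). The value of sample C rested on its dye swap at 0.84, while the Cy5 arrays of that sample gave -0.36 and 0.019.

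CNIH, an ER export receptor for growth factors of the TGF-alpha type, had a mean that rested mostly on sample A. Its 9 arrays gave 0.12, 1.02 and 0.55 in sample A, 0.050, -0.32 and 0.33 in sample B, and -0.080, -0.47 and 0.39 in sample C, with the dye swap last in each. All 3 sample values were above 0 (0.56, 0.098 and 0.055), with a mean of 0.24 ± 0.28 (SD, n = 3; adjusted p = 0.389), 0.36 above the median of all probes. Without sample A the mean was 0.077, below those of GOLGA7 (0.14) and COPB2 (0.10). GOLGA7, which despite its symbol is the partner of a palmitoyltransferase that modifies RAS proteins, gave 0.18, -0.14 and 0.42 and a mean of 0.15 ± 0.28 (SD, n = 3; adjusted p = 0.606). Without the second array of sample C, at 1.02, its mean was 0.036.

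**Figure D2:**
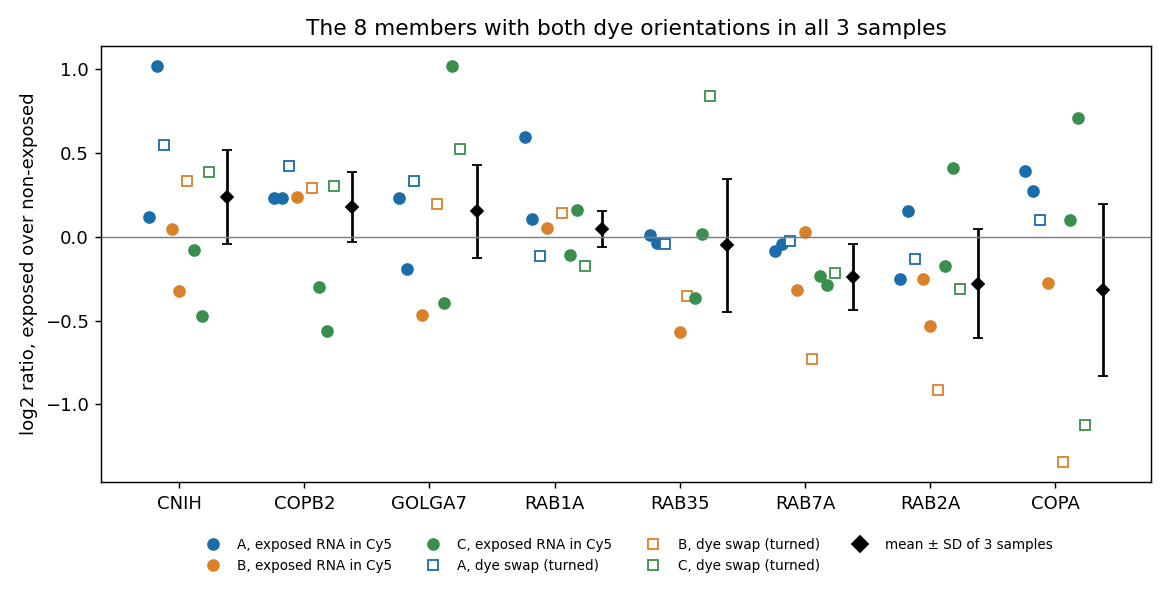
Log2 ratio of exposed over non-exposed cells (y axis) for the 8 members with both dye orientations in all 3 samples, ordered by mean. Circles are arrays with exposed RNA in Cy5, open squares are turned dye swaps, and diamonds with bars are the mean ± SD of the 3 samples. COPA has its lowest points on the dye swaps of B and C (-1.34 and -1.12), and every mean lies between -0.32 and 0.24.

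Leaving out the second array of sample C, a choice made after seeing the data, kept the sign of all 8 means and called 0 of the 8. The means without it were -0.37 for COPA, 0.20 for COPB2, -0.33 for RAB2A, -0.23 for RAB7A, 0.025 for RAB1A, -0.082 for RAB35 and 0.27 for CNIH. Where the dye-swap columns were instead taken as already turned, 6 of the 8 means changed sign, to 0.47 for COPA, -0.16 for COPB2, 0.17 for RAB2A, 0.083 for RAB7A, -0.18 for CNIH and -0.20 for GOLGA7, again with 0 calls.

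Whether the ratios followed the dye was tested on the same 570 probes, with the arrays taken singly and an exposure and a dye term. Of these probes, 44 (7.72%) had a dye effect past the threshold, and so did 1 of the 8 members. This was COPA, with a dye term of 0.50 on the log2 scale in favour of Cy5 (SE 0.14; adjusted p = 0.0304). The dye term depends on the direction of the dye-swap columns, and if these had been turned before deposit the same contrast would be the exposure difference (COPA 0.47). The call was lost with each array centred on its median (0.40, adjusted p = 0.093), after quantile normalization (0.29, adjusted p = 0.226), without sample B (0.44, adjusted p = 0.151), without sample C (0.34, adjusted p = 0.189) and without the second array of sample C (0.43, adjusted p = 0.0612). The dye effects of the other 7 members were between -0.18 and 0.17.

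Among all member probes read in both orientations, the sign was often not shared. Of 52 probes, 24 (46.2%) had Cy5 and dye-swap means on the same side of 0, near the 50.2% of all 3727 probes read in both. Both means were below 0 for 18 (34.6%, beside 39.5% of all such probes) and above 0 for 6 (11.5%, beside 10.7%). The Cy5 mean was above 0 and the dye-swap mean below for 18 (34.6%, beside 32.4%), and the reverse for 10 (19.2%, beside 17.4%). The widest gaps between the orientations were those of RAB19, ARF1, SEC31A and ARF3, each with a single dye swap, that of sample B.

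**Figure D3:**
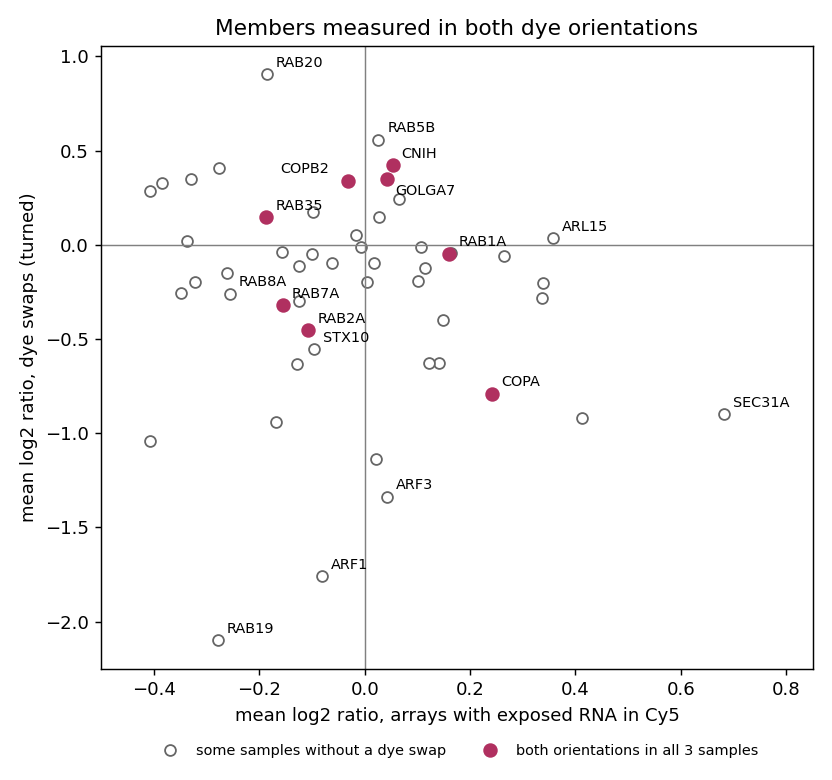
Mean log2 ratio of exposed over non-exposed cells on the Cy5 arrays (exposed RNA in Cy5, x axis) and on the turned dye swaps (y axis) for the 52 member probes read in both orientations. Filled points are the members with both orientations in all 3 samples. Points in the upper left and lower right, such as COPA (0.24 and -0.79), had means of opposite sign in the 2 orientations. For some open points, such as SEC31A, the 2 means come from different samples, so dye and sample cannot be told apart.

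All 66 member probes were then compared using every biological sample with a value, also where 1 orientation only was present. Of the 5688 probes in this fit, limma called 0 (0%), and 216 had an unadjusted p under 0.05. Among the members 0 were called, and 1 (RAB19) had an unadjusted p under 0.05. Of the 66 member probes, 47 (71.2%) were below 0, beside 65.8% of all probes, and the member median was -0.088, beside -0.091 for all probes. After centring every array, the member median became 0.021, so its side of 0 depended on that choice. With the dye-swap columns left as deposited, 30 of the 66 (45.5%) were below 0, beside 43.8% of all probes, and the medians were 0.021 and 0.036. The counts below 0 in each role are given for both readings of those columns. The means of the members ran from -1.19 (RAB19) to 0.47 (RAB5A).

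By sample, the median of the members was 0.031 in A, -0.17 in B and -0.14 in C, beside 0.052, -0.27 and -0.10 for all probes. Of the 42 members with a value in all samples, 12 (28.6%) kept 1 sign in all 3, 9 of them below 0 and 3 above, beside 31.1% of all such probes. Of the 34 member probes with values on at least 4 arrays, 3 (8.82%) had 1 sign on every array, beside 9.11% of all such probes. These were ARL3, RAB34 and STX10, all below 0 with the dye swaps turned. With those columns left as deposited none of these 3 kept 1 sign, and 4 others (11.8%, beside 7.72% of all such probes) did. These were RAB21 and the second COPA probe, above 0, and COPB1 and RAB40C, below 0, named after their values were seen.

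**Figure D4:**
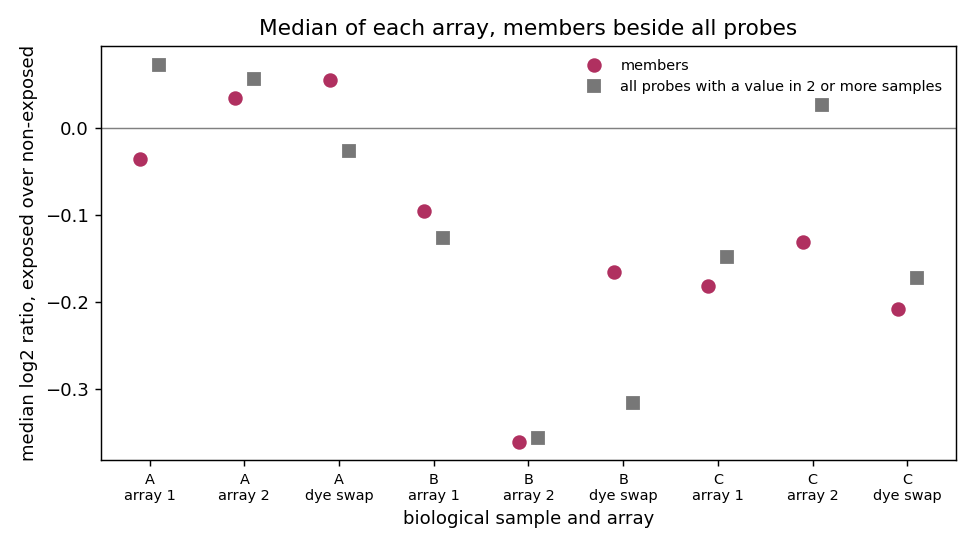
Median log2 ratio of exposed over non-exposed cells (y axis) on each of the 9 arrays (x axis, by biological sample) for the members (circles) and for all probes with a value in at least 2 samples (squares). The members' medians run from -0.36 on the second array of B to 0.055 on the dye swap of A, and the widest gap to all probes is on the second array of C (-0.13 and 0.027).

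The Rab group held 20 members, 15 below 0 and 5 above (12 below with the dye swaps as deposited), with a median of -0.14 and 0 calls. RAB8A, which directs vesicles from the Golgi to the plasma membrane, had the lowest mean among the Rabs read in all 3 samples. It gave 0.22, 0.30 and 0.0087 on the arrays of sample A, -0.53 on the dye swap of B, and -1.07 and -0.47 in C, with a mean of -0.39 ± 0.47 (SD, n = 3; adjusted p = 0.883). Sample A thus lay above 0 and the other 2 below. RAB5B, a GTPase of early endosomes, had the highest such mean at 0.13 ± 0.20 (SD, n = 3; adjusted p = 0.897), from sample values of 0.13, 0.33 and -0.064.

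Further Rabs were named after their values were seen. RAB34, linked to the positioning of lysosomes and to cilia, was below 0 on all 5 arrays, between -0.40 and -0.063, with a mean of -0.23 ± 0.15 (SD, n = 3; adjusted p = 0.883). RAB21, a regulator of integrin uptake, had sample values of 0.18, -0.59 and 0.022, and RAB38, which serves melanosomes and related organelles, had 0.18, -0.17 and -0.038. The means of these were -0.13 ± 0.41 and -0.0069 ± 0.18 (SD, n = 3 each). RAB19 had a value on 2 arrays only, -2.10 on the dye swap of B and -0.28 on the second array of C. RAB5A, the best known GTPase of early endosomes, also had 2 values, 0.50 in A and 0.44 in C, both from Cy5 arrays. The extremes of the Rab group therefore came from its most thinly read probes.

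The Arf, Arl and Sar1 group had 7 of 10 members below 0 (3 with the dye swaps as deposited), a median of -0.13 and 0 calls. ARF1, the GTPase that brings COPI to Golgi membranes, gave -0.22 and 0.11 in sample A, -0.27 and -0.40 on the Cy5 arrays of B, -1.76 on the dye swap of B, and 0.029 and 0.26 in C. The dye swap of B lay far below the other 6 arrays, which were between -0.40 and 0.26. The mean was -0.32 ± 0.64 (SD, n = 3; adjusted p = 0.883), and 0.045 without sample B. When the arrays were fitted with an exposure and a dye term instead, ARF1 was the 1 member called lower (-0.87, SE 0.18, adjusted p = 0.0347). This value rests on the same single dye swap, and the fit took the 7 arrays of ARF1 singly. That limma fit covered 3187 probes, 44 of them members, and called 10 lower and 1 higher.

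ARF3, a Golgi Arf closely related to ARF1, showed the same layout, with -0.14 and 0.21 in sample A, 0.051 in C and -1.34 on the dye swap of B. Its mean was -0.42 ± 0.80 (SD, n = 3; adjusted p = 0.883), the lowest of the group. ARF4, an Arf that sorts cargo at the trans-Golgi, gave sample values of -0.080, -0.24 and -0.34. ARL3, which releases lipid-anchored cargo into cilia, was below 0 on all 5 of its arrays, with sample values of -0.077, -0.26 and -0.51 and a mean of -0.28 ± 0.22 (SD, n = 3; adjusted p = 0.883).

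ARL15 had the highest mean of the group among genes read in all 3 samples, at 0.29 ± 0.28 (SD, n = 3; adjusted p = 0.883), from 0.57, 0.28 and 0.020. ARL14, known from dendritic cells for moving MHC class II vesicles, gave 0.42, -0.060 and -0.17 and a mean of 0.062 ± 0.31 (SD, n = 3; adjusted p = 0.956). SAR1A, the GTPase that starts COPII assembly, gave 0.23, 0.016 and -0.26 and a mean of -0.0063 ± 0.25 (SD, n = 3; adjusted p = 0.993). ARL14 and SAR1A thus had sample values on both sides of 0.

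In the COPII group, 2 of 4 members were below 0 (1 with the dye swaps as deposited). SEC31A, which forms the outer cage, had 0.25 in A, -0.90 on the dye swap of B and 1.11 in C, a mean of 0.16 ± 1.01 (SD, n = 3; adjusted p = 0.944). SEC23B, an inner-coat subunit that speeds GTP hydrolysis by Sar1, had -0.010, -0.11 and -0.24 and a mean of -0.12 ± 0.11 (SD, n = 3; adjusted p = 0.901). The spread of SEC31A was the wider of the pair, with its extremes in B and C.

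In the COPI group, 6 of 8 probes were below 0 (2 with the dye swaps as deposited) and the median was -0.14. COPZ2, 1 of the zeta subunits, gave 0.20, -0.94 and -0.54 and the lowest mean among those read in all 3 samples (-0.43 ± 0.58, SD, n = 3; adjusted p = 0.883). COPG (now COPG1), the gamma subunit, had close sample values of -0.052, -0.076 and -0.083, but its arrays ran from -0.72 on the dye swap of C to 0.55 on the second array of C. Its small SD of 0.016 therefore came from averages of values far apart.

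Among SNAREs 9 of 12 members were below 0 (5 with the dye swaps as deposited), with a median of -0.099, and 6 of the 12 had no dye swap. STX10, a syntaxin of the trans-Golgi network, was below 0 on all 6 arrays. It gave -0.12 and -0.20 in sample A, -1.30 on the dye swap of B, and -0.11, -0.059 and -0.18 in C, with a mean of -0.53 ± 0.66 (SD, n = 3; adjusted p = 0.883). The array of sample B stood far below the other 5. STX18, an ER syntaxin for vesicles returning from the Golgi, gave -0.48, -0.038 and 0.16. SNAP23, a SNARE of the plasma membrane, gave 0.0043, -0.20 and -0.34 and a mean of -0.18 ± 0.17 (SD, n = 3; adjusted p = 0.883).

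The golgin, cornichon and TMED group had 8 of 12 members below 0 (7 with the dye swaps as deposited) and a median of -0.046. TMED3, a p24 family member, was below 0 in each sample (-0.19, -0.26 and -0.50) and had the lowest mean, -0.32 ± 0.16 (SD, n = 3; adjusted p = 0.883). TMED2 and TMED10, which pair with each other in cargo capture, gave 0.51, 0.032 and -0.40 and 0.32, -0.0046 and -0.044. Both were highest in sample A, and their means were 0.047 ± 0.46 and 0.090 ± 0.20 (SD, n = 3 each).

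TMED5 had sample values of -0.40, 0.064 and -0.37, and TMED9 had -0.046, -0.58 and 0.20. The low value of TMED9 in sample B came from the dye swap at -1.14. CNIH4, a cornichon that helps G protein-coupled receptors leave the ER, gave 0.18, -0.070 and -0.25. GOLGA3, a golgin that organizes Golgi membranes, gave 0.30, -0.27 and -0.17. Each of CNIH4 and GOLGA3 was above 0 in sample A and below 0 in B and C.

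The other 29 member probes had values on 2 to 4 arrays, 22 of them below 0 and 7 above (65.8% of all probes were below 0), with means between -0.50 and 0.46. They were RAB9A, RAB5C, RAB25, RAB32, RAB40C, RAB13, RAB36, RAB11A, RAB20, ARF5, ARF6, ARL1, SEC24C, the COPII interactor SEC23IP, COPB1, COPE, COPZ1, SEC22C, SNAP29, STX3, STX4, STX5, STX7, STX11, VAMP3, VAMP8, GOLGA1, GOLGA5 and TMED4.

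Genes that work with these members were followed with 7 further lists (Rab regulators and effectors, SNARE cofactors, ER exit factors, COPI and Arf regulators, clathrin and adaptors, retromer with ESCRT, and tethers). Of 217 genes 194 were on the array, and 107 probes had a value in at least 2 samples. With the dye swaps turned, 69 of the 107 were below 0, with a median of -0.096. Over all 5688 probes with such values, 65.8% were below 0 and the median was -0.091. Of the 107 probes, 6 were dye-balanced and 0 were called in either direction. ARFIP2, a partner of Arf GTPases, had a mean of -0.26 ± 0.13 (SD, n = 3; adjusted p = 0.314), and CHMP1A, an ESCRT subunit, had -0.28 ± 0.23 (SD, n = 3; adjusted p = 0.289). SURF4, an ER export receptor, had 0.013 ± 0.29 (SD, n = 3; adjusted p = 0.976).

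Promoters were examined in the 250 bases before the start of each gene, from RefSeq (GRCh38.p14), for 54 of the 65 members. Letters were searched on both strands. The GC box GGGCGG was found in 77.8% of the members and in 42.3% of all 27305 promoters. The letters CCACG, the second part of the ER stress element, were found in 51.9% and 33.3%. The cAMP response element core TGACGT was found in 18.5% and 7.42%, and the CCAAT box in 27.8% and 33.0%. The members needed a value in at least 2 samples, while the set of all promoters had no such condition. The share among other genes with such values was not computed, so these differences cannot be assigned to trafficking genes. COPA and COPB2 are shown because these partners in 1 coat had dye-balanced means of opposite sign, neither past the threshold. The sign of COPA differed between its probes and between dye orientations. Capitals mark the letters searched, on either strand. COPA lies on the minus strand at chr1:160343251-160343500 and holds the GC box only. COPB2 lies on the minus strand at chr3:139389681-139389930 and holds CCACG at 2 places, the first overlapping the cAMP response element core read on the other strand (ACGTCA), and the GC box.
COPA: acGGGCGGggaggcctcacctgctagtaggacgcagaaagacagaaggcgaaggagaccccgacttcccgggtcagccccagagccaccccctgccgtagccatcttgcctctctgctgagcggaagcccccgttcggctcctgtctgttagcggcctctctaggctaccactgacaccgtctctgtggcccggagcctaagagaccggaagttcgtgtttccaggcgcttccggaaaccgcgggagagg
COPB2: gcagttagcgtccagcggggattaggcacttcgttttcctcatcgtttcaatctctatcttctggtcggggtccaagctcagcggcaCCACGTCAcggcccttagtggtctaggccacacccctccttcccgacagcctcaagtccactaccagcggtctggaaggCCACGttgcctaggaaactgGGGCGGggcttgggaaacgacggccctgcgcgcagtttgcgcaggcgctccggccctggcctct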

How the data were processed

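RNA of exposed and non-exposed HaCaT cells was amplified, labelled and hybridized together on Phalanx Human OneArray chips (9 arrays, 3 biological samples). The authors scanned the arrays, normalized them in ScanArray Express by a method not given in the sources used here, and deposited a log2 ratio per probe and array. Scale and direction are not stated in the table. Judged by their range the values are log2, and the dyes in the labels gave the direction (Cy5 over Cy3). Columns of dye swaps were turned, array medians were kept, and 0 sample columns were left unused. Of 30968 probes, 17397 had 1 gene symbol in the platform annotation and 13571 had none. Member symbols were matched in the RefSeq gene table, which replaced 2 of 65, and genes listed under older symbols were not looked for.

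Arrays of 1 biological sample were treated as 1 replicate. Its value was the mean of its Cy5 arrays averaged with its turned dye swap, or the 1 orientation present in the wider fit. Limma 3.58.1 in R 4.3.3 was used (lmFit, eBayes, two-sided, Benjamini-Hochberg over all probes of the fit, threshold 0.05), in place of the SAM software named in the methods. Its standard error was 0.154 for every dye-balanced probe. Dye effects came from a fit of the 9 single arrays in which arrays of 1 sample formed a random block (correlation 0.2). Scripts were tested on simulated data. The methods call the 3 samples biological replicates, and the p-values of the fits with 1 value per sample rest on the spread between them. In the dye-balanced fit this spread was pooled over all probes, so those p-values do not reflect the SD printed for each gene. Fits with a dye term, which gave the calls of COPA and ARF1, took the arrays singly. Their p-values also rest on the spread between arrays of 1 sample, which are not independent replicates.

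The members, lists and tests were chosen with earlier results of these data known. Named genes were the dye-balanced members, members past the threshold in any fit, members on the list of changed genes of the study (COPA, COPB2, CNIH, GOLGA7 and ARL14, chosen there on these samples and so not independent), the highest and lowest member per role with a value in all 3 samples, and the gene of each other list with the largest dye-balanced ratio. A further 17 members were added after their values were seen (values on at least 5 arrays, and RAB19 and RAB5A as extremes). Alternatives were the dye swaps left as deposited, either orientation alone, centred or quantile-normalized arrays, each probe's own spread, another filter, an array-level fit with a dye term, and leaving out each sample.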

Additional observations from a re-analysis of the deposited data

Results flagged for a closer look

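For 33 named genes with values on 4 to 10 arrays, the highest and lowest array was set against the others with Dixon's test. This marked 5 genes, and chance marks about 1 in 20. The arrays come from 3 biological samples and are not independent. On the dye swap of sample B, STX10 was lowest at -1.30, against -0.20 to -0.059 on its other 5 arrays. ARF1 was lowest there at -1.76, against -0.40 to 0.26, and RAB7A at -0.73, against -0.31 to 0.029. On the dye swap of sample C, RAB35 was highest at 0.84, against -0.56 to 0.019. On the first array of sample A, RAB1A was highest at 0.59, against -0.17 to 0.16.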

How the results depend on the processing

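The dye-balanced test called 0 of the members under all alternatives run, with a smallest adjusted p of 0.0591, for STX10, when both orientations were required in 2 samples only. STX10 was not dye-balanced in sample B, where its value was the dye swap alone at -1.30. Its SD over the samples was 0.665, while the pooled SE of that fit was 0.167. The count over all 570 probes was less stable. It was 33 with the dye swaps left as deposited (all higher, against 22 all lower), 19 from the Cy5 arrays alone (14 higher and 5 lower), 10 from the dye swaps alone, 10 after quantile normalization, 0 with each probe's own spread (32 at an unadjusted p under 0.05), 1 in the array-level fit with a dye term, 3 to 10 when a sample was left out (3 without B) and 38 without the second array of sample C. Over all probes with a value in 2 samples, the count of 0 became 56 from the Cy5 arrays alone. It was 3 with each probe's own spread and 0 to 23 when a sample was left out (23 without B, 2 without C). With a dye term, which could be fitted on 3187 of these probes (44 of them members), it was 11 (1 member, ARF1). The dye effect count of 44 became 14 with centred arrays, 3 after quantile normalization and 10 to 30 when a sample was left out. For this effect the members called were 0 to 1 in those fits, 0 with centred or quantile-normalized arrays and 0 without the second array of sample C. The median of the wider member set was 0.021 with dye swaps as deposited and 0.021 with centred arrays. The cause was not tested in any case.

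Of 40 named probes, 34 changed sign under some alternative. With the dye swaps left as deposited the means were 0.47 for COPA, -0.16 for COPB2, 0.17 for RAB2A, 0.083 for RAB7A, -0.18 for CNIH, -0.20 for GOLGA7, 0.48 for ARF3, 0.20 for COPZ2, -0.055 for RAB5B, 0.46 for STX10, 0.27 for ARF1, 0.0020 for SAR1A, 0.22 for COPG, 0.91 for RAB19, 0.35 for RAB21, 0.10 for RAB34, 0.020 for SNAP23, 0.16 for GOLGA3, -0.0013 for TMED2, 0.24 for TMED9, 0.071 for ARFIP2 and 0.075 for CHMP1A. From the Cy5 arrays alone they were 0.16 for COPA, -0.043 for GOLGA7, 0.045 for ARF3, 0.25 for COPG, 0.34 for RAB21, 0.073 for GOLGA3 and 0.043 for TMED9. From the dye swaps alone they were -0.047 for RAB1A, 0.15 for RAB35, -0.012 for ARL14, -0.20 for the second COPA probe, 0.052 for RAB38, 0.17 for CNIH4, -0.041 for TMED10 and -0.040 for SURF4. With centred arrays they were 0.079 for RAB35, 0.031 for SEC23B, 0.035 for STX18, 0.17 for SAR1A, 0.0098 for COPG, 0.0055 for RAB21, 0.13 for RAB38, 0.081 for CNIH4 and 0.082 for GOLGA3. Quantile normalization gave 0.068 for SAR1A, 0.050 for RAB38 and 0.034 for GOLGA3. The dye term gave -0.11 for SEC31A, 0.0096 for ARF4, 0.0078 for RAB21, 0.0053 for RAB38, 0.020 for CNIH4 and -0.011 for SURF4. Without the second array of sample C, RAB38 was at 0.13.

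When a sample was left out, 15 changed sign, with a range of -0.24 to 0.15 for RAB35, -0.55 to 0.045 for ARF1, -0.65 to 0.045 for ARF3, -0.12 to 0.18 for ARL14, -0.16 to 0.055 for CNIH4, -0.22 to 0.066 for GOLGA3, -0.28 to 0.10 for RAB21, -0.10 to 0.073 for RAB38, -0.12 to 0.12 for SAR1A, -0.32 to 0.68 for SEC31A, -0.26 to 0.063 for STX18, -0.090 to 0.18 for SURF4, -0.024 to 0.16 for TMED10, -0.18 to 0.27 for TMED2 and -0.31 to 0.079 for TMED9. Each ratio sets the exposed against the non-exposed RNA of 1 sample, so the tests already compared the conditions within samples. An unpaired alternative could not be run. Dim probes, background correction and slides could not be varied, since the table holds ratios only.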
